A study of Homo sapiens with 12 samples.

Results

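Olfactory receptor genes on human chromosome 11 were examined as a set of genes with no known function in oesophageal epithelium. The set held every protein-coding RefSeq gene of chromosome 11 whose symbol is OR followed by digits, letters and digits, outside one segment of the long arm that is not analysed here and holds no such gene. Of 171 such symbols, 3 (OR8U8, OR8U9 and OR9G9) carried coordinates of alternate scaffolds and were left out, which left 168 genes, set beside 1083 other protein-coding genes of the same chromosome and 19866 protein-coding genes of chromosomes 1 to 22, X and Y. The choice used symbols and positions and no measured value. Accessible chromatin had been profiled by ATAC-seq, in which a transposase inserts sequencing adapters into open DNA. The cells were KYSE150 and KYSE510, established lines of human oesophageal squamous cell carcinoma, each as control cells and as cells with the long non-coding RNA HCP5 silenced. The 12 libraries make 4 groups of 3, and both lines were grown in RPMI-1640 with fetal bovine serum. The means of silencing, the kind of control, the number of clones and whether the 3 libraries came from separate cultures are not given in the sources used here, so p-values between groups measure only the spread between these libraries.

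Olfactory receptors are G-protein-coupled receptors of the sensory neurons of the nose, where they bind odorants and signal through the G protein subunit encoded by GNAL, the adenylyl cyclase ADCY3 and a cyclic-nucleotide-gated channel. Their genes lie in clusters, most have a single coding exon, and each sensory neuron expresses one receptor from one allele while the others remain packed in heterochromatin. Class I receptors, the families 51, 52, 55 and 56, resemble the receptors of fish and sit together in a single cluster on the short arm of chromosome 11, and class II receptors make up the rest.

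The promoters of these genes are poor in CpG dinucleotides, and 4 of them are shown for the highest CpG numbers, the highest GC content or peaks in several libraries. They are not typical: the median receptor promoter has 1 CpG dinucleotide, and 61 of 135 had no peak in any library. Each is a window of 300 bases from 250 before to 50 after the gene start, from RefSeq on GRCh38.p14, written 5′ to 3′ on the strand of the gene with CpG dinucleotides in capitals. OR52N2 (chr11:5808674-5808973, plus strand) has the most CpG dinucleotides of the 135 receptor promoters found in the RefSeq table, 14, and a GC content of 55.3%. OR51S1 (chr11:4849159-4849458, minus strand) comes next with 6. OR51E1 (chr11:4643732-4644031, plus strand) has a GC content of 57.0%, the highest of the 135, but 3 CpG dinucleotides. OR6T1 (chr11:123943789-123944088, minus strand) has 3, and its promoter carried low peaks in KYSE150 alone.
OR52N2: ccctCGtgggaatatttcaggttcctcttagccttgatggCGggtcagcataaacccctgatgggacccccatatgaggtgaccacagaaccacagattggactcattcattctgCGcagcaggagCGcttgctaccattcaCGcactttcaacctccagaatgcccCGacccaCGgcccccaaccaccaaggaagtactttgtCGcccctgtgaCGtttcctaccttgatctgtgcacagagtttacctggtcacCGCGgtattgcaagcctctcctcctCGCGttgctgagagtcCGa
OR51S1: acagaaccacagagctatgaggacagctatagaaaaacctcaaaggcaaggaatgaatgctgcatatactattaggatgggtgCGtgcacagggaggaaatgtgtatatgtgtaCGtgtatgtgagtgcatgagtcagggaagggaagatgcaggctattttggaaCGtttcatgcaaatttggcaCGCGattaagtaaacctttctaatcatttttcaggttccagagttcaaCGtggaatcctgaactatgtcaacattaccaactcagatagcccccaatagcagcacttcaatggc
OR51E1: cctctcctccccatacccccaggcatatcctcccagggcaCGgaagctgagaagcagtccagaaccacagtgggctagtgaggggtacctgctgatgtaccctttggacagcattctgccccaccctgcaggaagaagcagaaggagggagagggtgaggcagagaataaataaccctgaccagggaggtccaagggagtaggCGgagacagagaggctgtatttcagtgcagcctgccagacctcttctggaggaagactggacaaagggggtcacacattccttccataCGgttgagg
OR6T1: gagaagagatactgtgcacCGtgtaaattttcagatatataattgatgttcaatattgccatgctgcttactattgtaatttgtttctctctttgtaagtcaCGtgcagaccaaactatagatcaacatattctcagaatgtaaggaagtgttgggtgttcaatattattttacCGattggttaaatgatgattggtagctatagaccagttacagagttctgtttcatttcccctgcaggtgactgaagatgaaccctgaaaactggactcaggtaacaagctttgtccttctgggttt

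Each library is a list of peaks, and the height of a peak is the deposited Pileup, a whole-number signal at its summit. The KYSE150 lists held 546453 to 629921 peaks, of which 80.8 to 82.5% had a height of 1. The KYSE510 lists held 115761 to 135841 peaks, and none was lower than 2. Read totals were not used here, so depth is unknown, and the background that the fold enrichments imply, 0.083 to 0.108 in KYSE150 and 0.18 to 0.217 in KYSE510, is the nearest stand-in. The lines therefore differ in the lowest height listed, and that difference cannot be told apart from the line in any comparison of shares. The squamous markers TP63, KRT5, CDH1, SFN, DSG3 and EPCAM had peaks of height 5 or more in all 12 libraries, while KRT6A had a mean highest height of 2.5 in KYSE150 and 7.17 in KYSE510 and KRT14 one of 0.5 and 0.833. Of 5 markers of olfactory sensory neurons, OMP had a peak in 1 library of each line and GNG13 in 2 KYSE150 libraries and no KYSE510 library, and RTP1 and CNGA2 had mean heights of 1.67 and 1.33 in KYSE150 and 1.83 and 0.833 in KYSE510. The long gene GNAL, which is also used outside the nose, had mean heights of 22.7 and 23.8. Windows of genes of other lineages held peaks as well: a height of 5 or more in all 6 KYSE150 libraries was found for 1 of 2 endothelial and 1 of 3 fibroblast markers, and in KYSE510 for 1 and 2. The lowest of these was DCN, a fibroblast proteoglycan, at a mean of 2.67 in KYSE150 and 0.833 in KYSE510. The part of any other cell type in the results was not tested.

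Peaks at the receptor genes were common in KYSE150 and rare in KYSE510, and most of those in KYSE150 were of the lowest height. A height of 1 made up 86.6 to 89.9% of receptor peaks in the KYSE150 libraries, beside 80.8 to 82.5% of all their peaks. A gene was given a peak when any deposited peak lay within 1 kb of its span. In KYSE150, 73.2, 68.5 and 70.8% of the 168 genes had a peak in the control libraries and 72.6, 82.7 and 73.2% in the silenced libraries. In KYSE510 these shares were 11.3, 15.5 and 11.3% in the control and 11.9, 11.3 and 16.1% in the silenced libraries. Every KYSE150 library was above every KYSE510 library. The line means were 73.5% ± 4.88 and 12.9% ± 2.2 (SD, n = 6), a difference of 60.6 percentage points (two-sided exact permutation test, p = 0.00216, the smallest that 6 against 6 libraries allow). The KYSE510 lists hold no peak of height 1, so this separation cannot be told apart from the lowest height listed. The other genes of chromosome 11 differed less between the lines, with 94.4% ± 0.58 in KYSE150 and 85.2% ± 0.93 in KYSE510 (SD, n = 6).

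**Figure D1:**
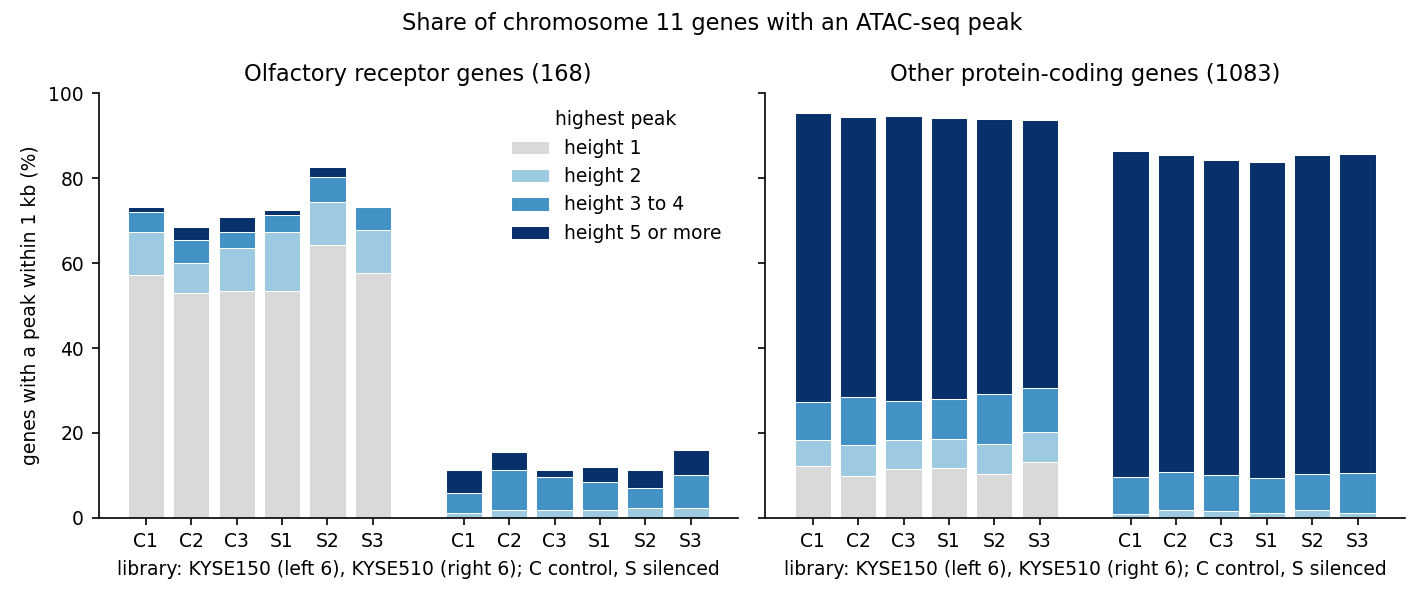
Stacked bars give the share of genes (%, vertical axis) with a peak within 1 kb, split by the height of the gene's highest peak, in each of the 12 libraries (horizontal axis; C control, S silenced, numbered by replicate). Height 1 makes up most of the receptor bars in KYSE150, whereas height 5 or more makes up most of the bars of the other genes in both lines.

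The order of the lines turned at heights of 3 or more. With peaks of height 2 or more, KYSE150 was still higher, by 4.07 points in place of 60.6 (two-sided exact permutation test over 6 against 6 libraries, p = 0.0195). The highest peak of a receptor gene had a height of 1 in 56.5% of genes, 2 in 10.2%, 3 to 4 in 4.86% and 5 or more in 1.88%, as means over the 6 KYSE150 libraries. In KYSE510 the corresponding means were 1.88% for height 2, 6.85% for 3 to 4 and 4.17% for 5 or more. The share of receptor genes with a peak of height 3 or more was thus 6.75% ± 1.39 in KYSE150 and 11.01% ± 2.12 in KYSE510 (SD, n = 6), and KYSE150 minus KYSE510 was -4.27 points (two-sided exact permutation test, p = 0.00216). Among the other genes this share was 76.1% ± 1.31 and 83.8% ± 1.06 (SD, n = 6), also lower in KYSE150. Heights were not scaled between the lines, whose implied backgrounds were 0.083 to 0.108 in KYSE150 and 0.18 to 0.217 in KYSE510. A height of 3 may therefore not be an equal threshold in both. In every library of both lines the receptor share at height 3 or more was below that of the other genes, and the mean difference was -69.3 points in KYSE150 and -72.8 points in KYSE510 (two-sided exact sign-flip permutation test within libraries, p = 0.031, the smallest that 6 libraries allow).

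Receptor genes are short, with a median span of 1103 bp against 18759 bp for the other genes, so a share per gene also reflects the length searched. The 92 receptor genes with spans under 2000 bp had a peak in 60.5% of cases in KYSE150 and 6.52% in KYSE510, and the 76 longer ones in 89.3% and 20.6%. The density of peaks per megabase of merged window reduces this difference. It does not remove it, since peaks that touch a window edge count and the flanking 1 kb makes up more of a short window. The 149 merged receptor windows covered 1.32 Mb and those of the other genes 61.0 Mb. In KYSE150, receptor windows held 241 ± 20.7 peaks per Mb and the other windows 227 ± 6.5 (SD, n = 6), which did not differ beyond the spread (two-sided exact sign-flip permutation test, p = 0.125). The difference of 13.95 peaks per Mb passed the test at 23.6 when the other genes were limited to spans no longer than the longest receptor, and at 23.8 over gene spans without the flanking 1 kb (exact sign-flip permutation test, p = 0.031 each). Counting peaks of height 2 or more turned the direction, to 27.1 against 54.5 peaks per Mb (exact sign-flip permutation test, p = 0.031).

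Peaks of height 1 were denser over the receptor genes than over other genes in KYSE150. Their density was 214 ± 20.8 per Mb in receptor windows and 172 ± 5.12 in the others (SD, n = 6), and it was higher in 6 of 6 libraries (exact sign-flip permutation test, p = 0.031). At height 2 the densities were 18.6 ± 2.75 and 19.9 ± 0.80 per Mb (SD, n = 6; exact sign-flip permutation test, p = 0.406). At height 3 to 4 the receptor density was 6.33 ± 1.14 against 12.6 ± 1.04 per Mb, and at height 5 or more 2.15 ± 1.55 against 21.99 ± 1.52 (SD, n = 6), lower in 6 of 6 libraries for both classes (exact sign-flip permutation test, p = 0.031 each). The ratio of receptor to other density therefore went from 1.24 at height 1 to 0.0978 at height 5 or more.

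In KYSE510, which lists no peak of height 1, the receptor windows were poorer in peaks throughout. They held 21.8 ± 3.06 peaks per Mb against 59.3 ± 2.91 in the other windows (SD, n = 6), lower in 6 of 6 libraries (exact sign-flip permutation test, p = 0.031). At height 5 or more the densities were 5.95 ± 2.32 and 32.7 ± 1.48 per Mb (SD, n = 6), a 5.5-fold difference.

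**Figure D2:**
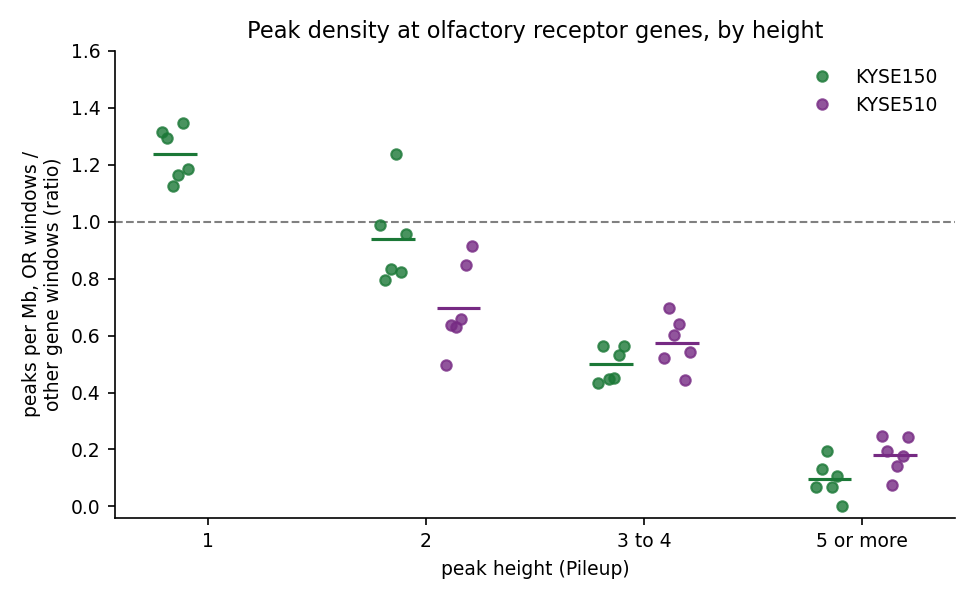
Each point is the peak density of receptor windows divided by that of the other gene windows (ratio, vertical axis) in 1 library, by peak height (horizontal axis); short lines are means over the 6 libraries of a line and the dashed line marks equal density. All 6 KYSE150 libraries lie above 1 at height 1, and all 12 libraries lie below 0.25 at height 5 or more.

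Most receptor peaks did not recur between replicates. A peak was said to recur when it shared at least 1 bp with a peak of a fellow replicate, and the share was averaged over the 2 fellow replicates. In KYSE150, 17.2% ± 1.6 of receptor peaks recurred against 25.8% ± 1.14 of peaks in the other windows, and in KYSE510 38.3% ± 5.08 against 61.4% ± 3.0 (SD, n = 6; exact sign-flip permutation test, p = 0.031 in each line). Each pair of fellow replicates enters the values of both its libraries. The 6 values of a line are therefore not independent, although the test treats them as if they were. Recurrence with libraries of the other treatment was 17.6% and 39.4%, and the difference from recurrence within a treatment was not tested.

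Taller peaks recurred more often in both kinds of window. In KYSE150 it was 13.5% ± 1.71 for receptor peaks of height 1, 32.4% ± 6.93 for height 2, 69.2% ± 8.91 for height 3 to 4 (SD, n = 6) and 89.2% ± 10.9 for height 5 or more (SD, n = 5 libraries that held such a peak, 17 peaks in all). The other windows gave 14.6, 30.4, 56.5 and 91.4%. In KYSE510 it was 8.89% ± 7.85 for height 2, 27.1% ± 12.2 for 3 to 4 and 79.9% ± 11.3 for 5 or more (SD, n = 6), against 15.4, 34.4 and 86.3%. The differences by height class were not tested.

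**Figure D3:**
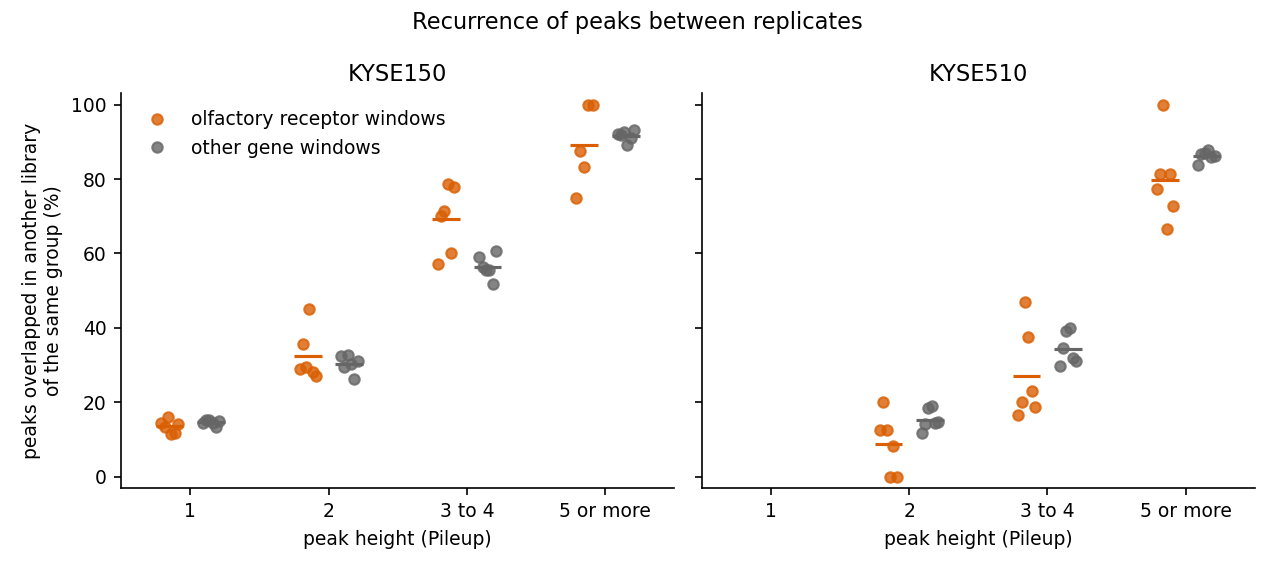
Points give, for each library, the share of its peaks (%, vertical axis) that overlapped a peak of a fellow replicate, by peak height (horizontal axis), in receptor windows and other gene windows; short lines are means. In KYSE150, receptor peaks run from 13.5% at height 1 to 89.2% at height 5 or more.

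Seen by gene, all 168 receptors had a peak in at least 1 KYSE150 library, and 55 had one in all 6. In KYSE510, 112 of 168 had no peak in any library and 7 had one in all 6. These 7 also had a peak in all 6 KYSE150 libraries. Among the other genes of chromosome 11, 99.4% had a peak in at least 1 KYSE150 library and 85.6% in all 6. In KYSE510, 6.56% of them had no peak in any library and 76.5% had one in all 6. Only 55 of 168 receptors (32.7%) ever reached a height of 3 in the 12 libraries, against 93.4% of the other genes, and 14 (8.33%) ever reached 5, against 83.8%. A group of 67 receptors never rose above height 1 in KYSE150 and had no peak in KYSE510.

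The places with peaks were scattered. Merging the receptor peaks of the 12 libraries gave 1324 regions. In KYSE150, 915 of 1305 called regions (70.1%) were called in a single library and 9 in all 6. In KYSE510, 61 of 93 were called in a single library and 2 in all 6. The region called in all 12 libraries was chr11:4492859-4493625, at the 3′ end of OR52K1.

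Counted by gene and not by site, the few receptors with tall peaks were largely shared by the lines. The peaks of a shared gene may lie at different places in its window, and 1 region was called in all 12 libraries. Of the 12 receptors with a peak in 4 to 6 KYSE510 libraries, 10 (83.3%) had a height of 3 or more in at least 3 KYSE150 libraries. Of the 112 receptors with no KYSE510 peak, 1 (OR56A5) did, and of the 26 and 18 receptors with a peak in 1 and in 2 to 3 KYSE510 libraries, 0 did. The median of the mean KYSE150 height over these groups was 0.667 for no KYSE510 library, 1 for 1, 1.17 for 2 to 3 and 3.58 for 4 to 6. Median spans also differed between these groups, from 994 bp for the first to 11706 bp for the last, and the part of span in this order was not tested. The order is a description, since both lines were searched over the same windows.

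OR52K1, a class I receptor gene at 4482646 to 4493497, had the greatest mean height over the 12 libraries. Its highest peak had heights of 5, 4 and 8 in the control and 8, 6 and 3 in the silenced KYSE150 libraries, and of 10, 7 and 9 in the control and 5, 7 and 11 in the silenced KYSE510 libraries. No library lacked a peak, and the control and silenced heights overlapped in both lines. The region lies across the downstream end of the gene, 10596 bp from its start. The nearest protein-coding gene outside the receptor set, TRIM21, is 99157 bp away. Other receptor genes lie nearer, with OR52K2 ending at 4450361 and OR52M1 starting at 4545191.

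OR52N2, also class I, had a recurrent region over its gene start. The region chr11:5808269-5809043 was called in 11 of 12 libraries and spans the start of the gene at 5808924, within the CpG-rich window shown above. The highest peaks of the gene were 3, 4 and 3 in the control and 2, 1 and 4 in the silenced KYSE150 libraries, and 6, 5 and 6 in the control and 2, 3 and 7 in the silenced KYSE510 libraries. Silenced KYSE510 libraries 1 and 2 were below all 3 controls and library 3 above them. The difference was -0.54 ± 0.41 on the log2(height + 1) scale (SE; limma, adjusted p = 0.959).

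OR51D1, a class I neighbour of OR51E1, had heights of 4, 4 and 3 in control and 2, 3 and 3 in silenced KYSE150 libraries, and 6, 2 and 4 and then 7, 6 and 4 in KYSE510. Its recurrent region, chr11:4636602-4637572, overlaps the lowest coordinates of the gene span, which runs from 4637477 to 4643060, and was called in 11 libraries. Groups overlapped in both lines. OR51B5 spans 165335 bp and OR9Q1 157736 bp, and both enclose other receptors, so that a tall peak anywhere in these spans counts for the gene. OR51B5 had heights of 4, 3 and 6 in control and 3, 3 and 2 in silenced KYSE150 libraries, and 7, 6 and 3 and then 4, 7 and 5 in KYSE510.

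OR56A3 and OR56A5 share a stretch of the class I cluster. OR56A3, with a span of 79760 bp, had heights of 2, 8 and 4 in control and 3, 5 and 3 in silenced KYSE150 libraries, and 7, 7 and 4 and then 5, 5 and 3 in KYSE510. OR56A5 lies inside that span at 5967553 to 5968494 and had heights of 2, 8 and 1 and then 3, 5 and 3 in KYSE150, and no peak in any KYSE510 library. Its region, chr11:5967714-5968125, within the span of OR56A5, was called in 6 of 6 KYSE150 and 0 of 6 KYSE510 libraries. The receptor was named for its KYSE150 peaks, so no test is given.

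OR2AT4, a class II receptor that stands alone between clusters and has been studied in skin keratinocytes, showed the reverse. Its highest peaks were 2, 1 and 2 in control and 1, 2 and 1 in silenced KYSE150 libraries, and 3, 8 and 3 and then 3, 2 and 5 in KYSE510. The region chr11:75082649-75083141, within its span, was called in 5 of 6 KYSE510 libraries and in 0 of 6 KYSE150 libraries.

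Among class II receptors, OR10S1 held the tallest single peak, of height 12. Its heights were 0, 6 and 5 in control and 5, 6 and 3 in silenced KYSE150 libraries, and 9, 8 and 0 and then 4, 12 and 8 in KYSE510. The region chr11:123977964-123978381 lies 183 bp outside the gene, which is 1121 bp long. OR8B3 had heights of 3, 6 and 7 in control and 3, 4 and 4 in silenced KYSE150 libraries, and 5, 4 and 3 and then 0, 2 and 7 in KYSE510. OR4S1 and OR9G1 each had a peak in 10 of 12 libraries, with highest values of 6 and 9.

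**Figure D4:**
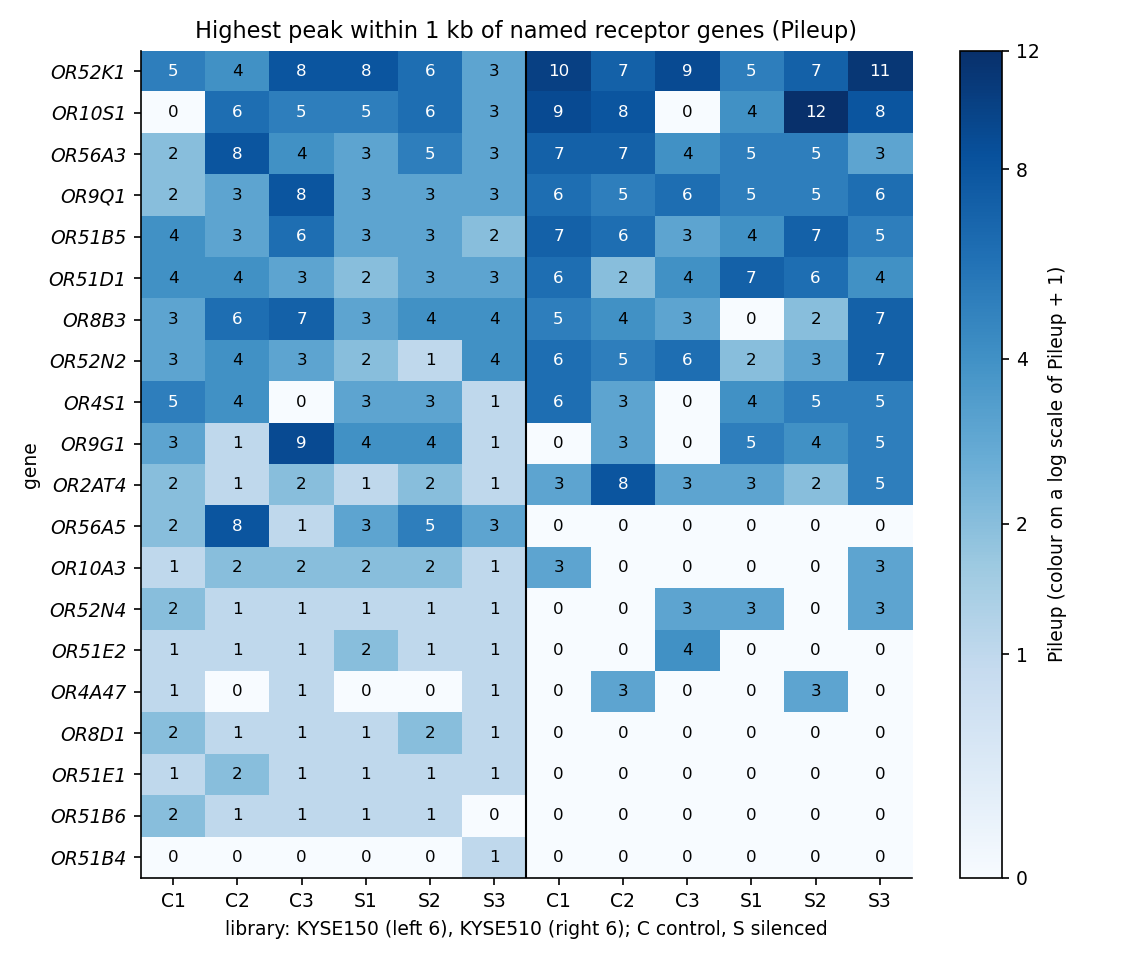
Rows are the named receptor genes in order of mean height over the 12 libraries and columns the libraries (C control, S silenced, numbered by replicate); each cell gives the height of the highest peak within 1 kb, with colour on a log scale of height + 1. The upper 11 rows have peaks in at least 10 libraries. OR52K1, OR56A3, OR9Q1, OR51B5, OR51D1, OR52N2 and OR2AT4 have one in all 12.

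Receptors known for expression outside the nose mostly had low peaks, with OR51B5 and OR2AT4, described above, as exceptions. OR51B5 and OR2AT4 had a peak in all 12 libraries and mean heights of 5.33 and 4 in KYSE510. OR51B5, OR2AT4, OR51E1, OR51E2, OR10A3, OR52N4 and OR8D1 had a peak in all 6 KYSE150 libraries, and OR51B4, OR51B6 and OR4A47 did not. Among all receptors, 32.7% had a peak in all 6 KYSE150 libraries and 33.3% in at least 1 KYSE510 library. The difference of the list from these shares was not tested. OR51E1 and OR51E2, described in prostate, had heights of 1, 2 and 1 and of 1, 1 and 1 in control KYSE150 libraries, and 1, 1 and 1 and 2, 1 and 1 in silenced ones. In KYSE510 OR51E1 had no peak and OR51E2 one, of height 4 in control library 3. OR51B6 had heights of 0 to 2 in KYSE150 and none in KYSE510, and OR51B4 had a single peak of height 1 in the 12 libraries. OR8D1 had heights of 1 to 2 in KYSE150 and none in KYSE510. OR10A3, OR52N4 and OR4A47 had highest KYSE510 peaks of 3, in 2, 3 and 2 libraries. RefSeq promoters were found for 135 members, and OR51E2 was among those without an entry.

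No difference in density between classes passed the test. Members less than 1 Mb apart formed 7 groups along the chromosome, the largest with 67 genes from 4367263 to 7941708 and with 48 genes from 54603069 to 56989843. The density in KYSE150 was 244 ± 27.9 peaks per Mb in the former and 236 ± 18.3 in the latter, and in KYSE510 24.0 ± 4.74 and 14.5 ± 9.82 (SD, n = 6). The 55 class I genes had 245 ± 28.9 peaks per Mb in KYSE150 and the 113 class II genes 238 ± 19.6. In KYSE510 the values were 24.7 ± 4.28 and 19.7 ± 5.66 (SD, n = 6). None of 4 class comparisons, over both lines and over all peaks or heights of 3 or more, passed the exact sign-flip permutation test (Benjamini-Hochberg adjusted p = 0.531 in each).

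At promoters the gap between receptors and other genes was wide in both lines. The 135 receptor promoters had a median GC content of 37.0% and a median of 1 CpG dinucleotide, and 36 had none. The 791 promoters of other chromosome 11 genes had medians of 62.7% and 22. At least 10 CpG dinucleotides were found in 1 receptor promoter (0.741%), that of OR52N2, and in 71.9% of the others. For 64 of the 135 the listed gene start is an ATG, so the window there starts from the coding sequence and a separate upstream exon would be missed. The median CpG number was 1 both in these 64 and in the other 71.

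A peak of any height lay on 13.1% ± 3.71 of receptor promoters in KYSE150 and 0.988% ± 0.60 in KYSE510, against 59.8% ± 1.65 and 58.8% ± 0.65 of the other promoters (SD, n = 6). Peaks of height 3 or more lay on 0.494% ± 0.38 and 0.741% ± 0.66, against 54.7% ± 1.28 and 58.4% ± 0.78. Each of these 4 differences held in 6 of 6 libraries (exact sign-flip permutation test, p = 0.031). Of the 135 receptor promoters, 61 had no peak in any library, 49 in 1, 18 in 2, 4 in 3 and 2 in 4 libraries, and that of OR52N2 in 9.

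The promoter of OR52N2 had peaks of height 3, 4 and 3 in control and 2, 0 and 4 in silenced KYSE150 libraries. In KYSE510 the values were 6, 5 and 6 in control and 0, 0 and 7 in silenced libraries. The promoter of OR6T1 had heights of 1, 0 and 0 and then 2, 2 and 2 in KYSE150, and that of OR10A2 1, 1 and 0 and then 1, 1 and 0, with none in KYSE510. That of OR51S1, second in CpG number, had peaks of height 1 in 2 libraries, and that of OR51E1, highest in GC content, in 1. Besides OR52N2, a promoter peak of height 3 or more was found at OR52B6 and OR6A2, each in a single KYSE510 library.

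**Figure D5:**
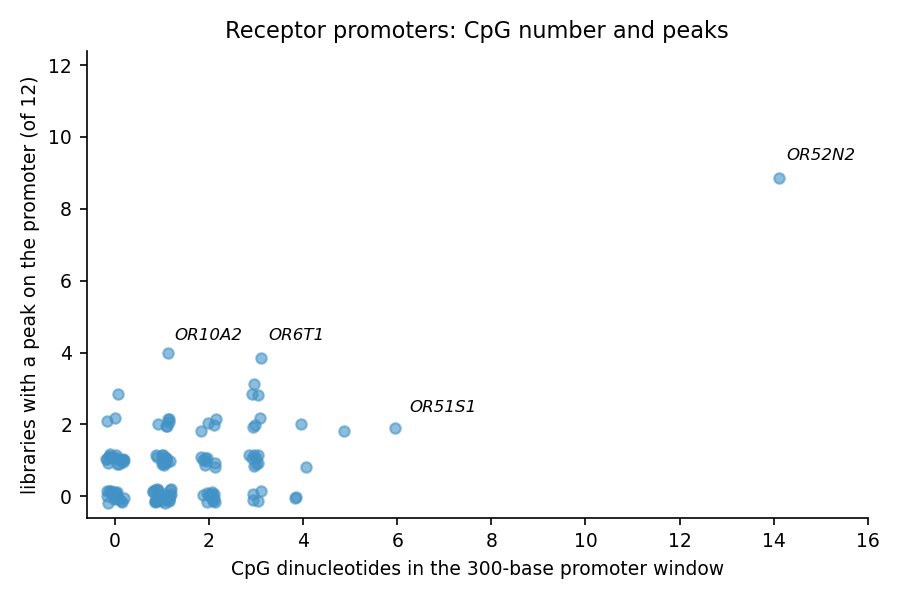
Each point is 1 of 135 receptor promoters, by the number of CpG dinucleotides in its 300-base window (horizontal axis) and the number of libraries with a peak on it (vertical axis, of 12); points are spread slightly so that equal values can be seen. OR52N2 stands at 14 CpG dinucleotides and 9 libraries, and all others have at most 6 and at most 4.

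Short motifs were searched on both strands of the same windows. The homeodomain core TAATTA was found in 24.4% of receptor promoters and 3.03% of the others, and the TATA box TATAAA in 35.6% and 9.10%. The GC box GGGCGG was found in 0.741% and 59.5%. The EBF motif CCCNNGGG, bound by a family of factors active in olfactory neurons, was found in 8.15% and 22.9%, and the AP-1 motif TGANTCA in 11.1% and 7.21%. No pair of these motifs was required to be apart, so matches of different motifs may overlap. A match counted at any position, so TATAAA need not be placed as a TATA box. The shares were not adjusted for base composition, with median GC contents of 37.0% and 62.7% in the receptor and other promoters. The part of composition in these differences was not tested.

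Silencing of HCP5 was compared with control over the whole receptor set in each line. The share of receptors with a peak averaged 70.8% ± 2.38 over control and 76.2% ± 5.68 over silenced libraries of KYSE150 (SD, n = 3), a difference of 5.36 points (two-sided exact permutation test, p = 0.3). In KYSE510 it was 12.7% ± 2.41 and 13.1% ± 2.59 (SD, n = 3), a difference of 0.397 points (exact permutation test, p = 0.7). At height 3 or more the shares were 7.14% ± 1.19 and 6.35% ± 1.72 in KYSE150, and 11.1% ± 2.3 and 10.9% ± 2.48 in KYSE510 (SD, n = 3; exact permutation test, p = 0.6 and p = 1). With 3 against 3 libraries the smallest possible p is 0.1, and the Benjamini-Hochberg adjusted values were 0.933 to 1. The difference between the lines in the effect of silencing did not pass by permutation over 400 relabellings, with a log2 ratio difference of 0.06 for any peak (p = 0.775) and -0.14 for height 3 or more (p = 0.7).

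Gene by gene, the highest peak was compared by limma on the log2(height + 1) scale over all genes with a peak in at least 3 of the 6 libraries of a line. In KYSE150, 3 of 147 receptors tested (2.04%) passed a Benjamini-Hochberg adjusted p of 0.05, against 22 of 18929 genes, or 0.116%. OR5P2, a class II receptor, had no peak in the 3 control libraries and a peak of height 1 in each silenced library. OR8H1 and OR8U1 had a peak of height 1 in each control library and none in the silenced libraries. All 3 had a change of 1 ± 0.07 in size on that scale (SE; limma, adjusted p = 0.0175), OR5P2 upward and the others downward.

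These 3 calls rest on the lowest height listed and on groups with no spread. Of the 22 calls over all genes, 15 had no peak above height 1 and 16 had no spread within either group. The FDR deposited for the peaks behind the 3 calls was 0.44 to 0.571. No receptor passed with summed heights, with all genes that had a peak in at least 1 library, or with peaks of height 2 or more, a setting added after the data were seen. With replicate number as a block none passed either, and the 3 had an adjusted p of 0.356 (limma). OR8H1 and OR8U1 could not be tested once 1 control library was left out, nor OR5P2 once 1 silenced library was, since fewer than 3 libraries then held a peak. At an unadjusted p of 0.05, 10 of 147 receptors passed (6.80%, 7 higher and 3 lower), against 8.56% of all genes. The median change over all genes in KYSE150 was -0.17 and that over the receptors tested 0.

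In KYSE510, 0 of 15 receptors tested and 0 of 16743 genes passed by limma, a background of 0%. At an unadjusted p of 0.05, 1 of the 15 passed, against 4.6% of all genes. It was OR9G1, with heights of 0, 3 and 0 in control and 5, 4 and 5 in silenced libraries, a change of 1.83 ± 0.69 (SE; limma, adjusted p = 0.958). In KYSE150 OR9G1 had heights of 3, 1 and 9 and then 4, 4 and 1, and the line-by-silencing term for it did not pass (limma, adjusted p = 0.851). That term passed for 0 of 14 receptors and for 0.00601% of 16644 genes, with 1 of the 14 and 5.77% of genes at an unadjusted p of 0.05.

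Receptors with peaks in 3 of 3 libraries of 1 treatment and 0 of 3 of the other were counted last. In KYSE150, OR2D3 and OR5P2 (1.19% of receptors) had peaks in silenced libraries alone, where the share over all genes was 0.0654%, and OR8H1 and OR8U1 (1.19%) in control libraries alone, where it was 0.0956%. In KYSE510 0 of 168 receptors fell on either side, where the shares over all genes were 0.151% and 0.131%. Only a gene with peaks in exactly 3 of the 6 libraries of a line can show this pattern. In KYSE150 such genes were 15.5% of receptors and 1.94% of the other chromosome 11 genes, and in KYSE510 1.79% and 2.49%. The shares of receptors and of all genes thus do not rest on an equal base, and no enrichment is read from them. OR2D3 had heights of 2, 1 and 1 in the silenced libraries, and none of its 3 peaks overlapped another. For OR5P2 2 of 3 peaks, for OR8H1 2 of 5 and for OR8U1 2 of 4 overlapped a peak of another library.

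Genes that carry or control the olfactory signal mostly had peaks, as most other genes did. Of 27 genes of olfactory transduction and receptor choice, 24 had a peak in all 6 KYSE150 libraries and 21 in all 6 KYSE510 libraries, and 16 and 19 had a height of 5 or more in all 6. Among the other genes of chromosome 11, 85.6% had a peak in all 6 KYSE150 libraries and 76.5% in all 6 KYSE510 libraries. A height of 5 or more in all 6 was found for 56.4% and 65.7% of them. The difference of the list from these shares was not tested. The list of 27 includes the chromatin enzymes SETDB1, EHMT1 and SUV39H1 and the heterochromatin proteins CBX3 and CBX5, which all cells use. The homeodomain factor LHX2, needed for receptor choice, had a mean height of 1.67 in KYSE150 and 20.0 in KYSE510, and EMX2 0.667 and 3.5. For silenced against control, limma called 0 of the 25 genes of this list tested in KYSE150 and 0 of 22 in KYSE510 at an adjusted p of 0.05, against 0.116% and 0% of all genes. Their median log2 changes were -0.09 and -0.05, beside -0.17 and -0.04 over all genes. At an unadjusted p of 0.05, 1 of 25 passed in KYSE150 (KDM1A, a histone demethylase, lower in silenced libraries), against 8.56% of all genes, and 0 of 22 in KYSE510, against 4.6%.

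Of 20 housekeeping genes of chromosome 11, 18 had a height of 5 or more in all 6 KYSE150 libraries and 19 in all 6 KYSE510 libraries, and POLR2L had no peak in KYSE150. The 13 genes of the MS4A family lie on the same chromosome and are mostly known from blood cells. They had a median of mean heights of 1.33 in KYSE150, and 7 of 13 had no peak in KYSE510. Among 20 genes inside or beside the receptor clusters, 9 in KYSE150 and 12 in KYSE510 had a height of 5 or more in all 6 libraries, TRIM21 and CTNND1 among them. TRIM48, TRIM51 and PANX3 had no peak in KYSE510. Limma called 0 genes of these 3 lists at an adjusted p of 0.05 in either line, where it called 0.116% of all genes in KYSE150 and 0% in KYSE510. At an unadjusted p of 0.05, 5 of 19 housekeeping, 1 of 13 MS4A and 1 of 20 neighbouring genes tested passed in KYSE150, against 8.56% of all genes. In KYSE510 2 of 19, 1 of 4 and 0 of 15 passed, against 4.6%. All of these were lower in silenced libraries. Most genes that passed this threshold in KYSE150 were lower as well, with 191 of 1621 higher, while 368 of 771 were higher in KYSE510. RPS25 and TRAPPC4, which count among the housekeeping genes in both lines, had the same height in every library.

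Receptor genes include near-identical copies, and the sources used here do not say how reads that match several places were assigned, so a value may be shared with or lost to a copy. The windows of 29 members overlap that of another member and 11 overlap another protein-coding gene, and their peaks count for each.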

How the data were processed

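ATAC-seq peak tables of 12 libraries were used, 1 per library, with groups and replicate numbers taken from the labels. Per the submitters' processing notes, the tools were Trimmomatic 0.36, Bowtie2 2.2.6, Picard 2.8.2, MACS2 2.1.1 and bedtools 2.25.0 on GRCh38. Their options and the handling of multi-mapping reads are not given in the sources used here. Per the file headers, the authors deposited for each peak its pileup, a signal in whole numbers at the summit, here called height. Per the file headers, the deposited fold enrichment is a ratio to local background, used only for the implied background. The deposited p-value and FDR are the authors' own, on the linear scale, and no p-value exceeded 0.00987. The authors' peak length has a deposited minimum of 200 bp. Replicates were called separately and nothing was normalised between libraries as far as the tables show. A peak's own height describes that list, and depth is unknown, so no counting interval was computed.

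The highest peak within 1 kb of each RefSeq gene span (GRCh38.p14, the files' build) was taken per library, and density was computed per Mb of merged window; receptor windows were subtracted from those of the other genes. Shares, densities and recurrence were compared by exact permutation tests over libraries. Heights were compared by limma 3.58.1 (lmFit and eBayes with trend, R 4.3.3) on log2(height + 1), a scale that understates changes of low genes, with Benjamini-Hochberg adjustment over all genes tested. Python 3.11.15, numpy 2.4.6, pandas 2.3.3 and matplotlib 3.10.9 were used, and the interval, permutation and limma steps were tested on simulated data. Promoters came from RefSeq for 135 of 168 members.

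Receptors were named by rule: per line the 5 with peaks in the most libraries, then by mean height; up to 10 with a height of 5 or more in at least 2 libraries of a group; 10 chosen by symbol; and per line the 3 with the smallest limma p and those with peaks in all libraries of 1 treatment and none of the other. Remarks on single promoters and regions were chosen after their values were seen. The members, lists and tests were chosen with earlier results of these data known. Deviations of same-numbered replicates correlated weakly, at 0.000286 to 0.0912, so no block was used except where one is named. The alternatives varied the window, overlap, FDR, height, comparison genes, limma filter and scaling, the replicate block and each library left out. The result of 1 further marker list is not reported here.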

Additional observations from a re-analysis of the deposited data

How the results depend on the processing

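The line difference in the share of receptors with any peak kept its direction and its side of the threshold under every alternative run, and so did that at height 3 or more, but its size fell from 60.6 points to 4.07 with heights of at least 2 and to 3.87 with an FDR of at most 0.05. For silenced minus control, 3 against 3 libraries cannot give a p under 0.1, so only the values are compared. With a 5 kb window the difference in share was -0.198 points in both lines, and with an FDR of at most 0.05 it was -0.198 in KYSE510. Leaving out 1 library at a time gave 2.08 to 7.14 points in KYSE150 and -1.09 to 1.79 in KYSE510 for any peak, and -1.79 to -0.198 and -1.59 to 1.09 for height 3 or more. The line-by-silencing log2 ratio ran from -0.11 to 0.23 for any peak and from -0.39 to 0.052 for height 3 or more, and was 0.028 for the latter over gene spans alone. The density difference in KYSE150 (13.95 peaks per Mb) became -22.4 with an FDR of at most 0.05 and -27.4 with heights of at least 2, and passed the test at 23.6 against other genes no longer than the longest receptor and at 23.8 over gene spans alone. Without 1 library, 5 remain and the smallest p is 0.0625: the KYSE510 density difference was -38.2 to -36.7 per Mb, and the recurrence difference -8.75 to -8.35 points in KYSE150 and -24.0 to -21.9 in KYSE510. Genes called by limma in KYSE150 numbered 0 with summed heights, 5 with a peak in at least 1 library, 34 with a peak in all 6, 0 with heights of at least 2 (added after seeing the data) and 25 to 44 without 1 library, and receptors among them 0, 0, 0, 0 and 2 to 6. Without control library 3 or silenced library 2 of KYSE150, 34 and 44 genes were called, and without control library 2 or silenced library 2, 5 and 6 receptors. In KYSE510 the calls were 0 to 1 without 1 library, 1 without control library 1. The line-by-silencing term called 0 with summed heights, 0 with a peak in all 6, 2 with quantile normalization and 0 to 2 without 1 library. Under the replicate block limma called 0 genes and 0 receptors in KYSE150, and 0 for the line term. Pairing of the libraries by number was weak. Deviations of same-numbered libraries correlated at 0.000286 to 0.0386 in KYSE150 and 0.0328 to 0.0912 in KYSE510. Each was the highest of its control library's 3 correlations except for control library 3 of KYSE150. Differently numbered libraries correlated at -0.0482 to 0.0172 in KYSE150 and at -0.0667 to -0.000546 in KYSE510. With 3 pairs a blocked test of share cannot pass, and it is not read here. The causes of these changes were not tested. Depth is unknown, so absence of a low peak in KYSE510 says only that none was listed.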
